A study of Mus musculus with 6 samples.

Results

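The nuclear end of canonical WNT signaling was examined in cultured embryonic mouse ureters through 9 genes: the TCF/LEF family *Tcf7*, *Tcf7l1*, *Tcf7l2* and *Lef1*, the coactivator gene *Ctnnb1* (β-Catenin), the cofactor genes *Bcl9*, *Bcl9l* and *Pygo2*, and *Sp5*. The genes were chosen by their symbols as known components of this step, with earlier results of these data known. All 9 were found among the 56748 genes of the count table. All 6 samples were wildtype ureters of the NMRI mouse strain, dissected at E12.5 and grown on membranes in DMEM/F12 medium for 18 h. In the 3 LiCl samples the medium held 15 mM LiCl, an inhibitor of GSK3 kinases, and the 3 control samples received water. The transcriptome was measured by RNA-Seq of poly-A selected RNA, with 28473436 to 31266945 counts per sample. Whole explants were measured, so epithelium, mesenchyme and other cells were read together, and fewer cells of a type cannot be told apart from less RNA per cell. The number of ureters or litters behind a sample was not given in the sources used here, so p-values measure the spread between these samples, which may in part be technical.

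When WNT ligands are absent, CTNNB1 is phosphorylated by GSK3B in a cytoplasmic destruction complex and degraded, while TCF/LEF proteins sit on their DNA sites together with TLE corepressors. When the complex is inhibited, CTNNB1 enters the nucleus, binds the TCF/LEF proteins and recruits BCL9, BCL9L and PYGO proteins, and target genes are transcribed. The 4 family members differ in tendency. TCF7 and LEF1 are mostly linked to activation of targets, TCF7L1 is mostly linked to repression, and TCF7L2 can do either. A separate pool of CTNNB1 links cadherins to the actin cytoskeleton at cell junctions. In the developing ureter, WNT ligands of the epithelium signal to the adjacent mesenchyme, where CTNNB1 is needed for smooth muscle differentiation.

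TCF/LEF proteins bind short DNA motifs, and some of the genes examined are themselves known targets of the pathway. The 250 bases before annotated start sites were therefore read from RefSeq (GRCm38.p6) and searched on both strands for the TCF/LEF motif CTTTGNN, in which each N stood for A or T. Windows were found for 8 of the 9 genes, 16 windows in all, and *Bcl9l* had no entry. The motif letters occurred in 3 of these 16 windows (18.8%), against 14.8% of all 32851 windows of the same length. By gene, 3 of the 8 (37.5%) had a match in at least 1 window, against 16.8% of 27025 genes. Some windows of the same gene overlap, and a gene with more windows has more places for a match. Only the window of *Sp5* among the 16 held 2 matches, as did 1.43% of all windows. The 3 windows with a match are printed below from 5′ to 3′ in the direction of the gene, with the matches in capitals.
Sp5, chr2:70474673-70474922, plus strand: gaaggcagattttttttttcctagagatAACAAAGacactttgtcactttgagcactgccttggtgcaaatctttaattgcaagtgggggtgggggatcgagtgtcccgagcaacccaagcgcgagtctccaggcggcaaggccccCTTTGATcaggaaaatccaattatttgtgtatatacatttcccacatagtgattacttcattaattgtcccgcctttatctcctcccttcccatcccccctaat
Lef1, chr3:131156044-131156293, plus strand: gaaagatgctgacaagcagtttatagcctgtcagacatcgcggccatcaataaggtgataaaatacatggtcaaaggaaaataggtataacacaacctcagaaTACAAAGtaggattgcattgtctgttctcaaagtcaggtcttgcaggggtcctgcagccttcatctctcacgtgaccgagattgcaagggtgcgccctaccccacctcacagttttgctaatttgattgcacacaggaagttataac
Tcf7l2, chr19:55895071-55895320, plus strand: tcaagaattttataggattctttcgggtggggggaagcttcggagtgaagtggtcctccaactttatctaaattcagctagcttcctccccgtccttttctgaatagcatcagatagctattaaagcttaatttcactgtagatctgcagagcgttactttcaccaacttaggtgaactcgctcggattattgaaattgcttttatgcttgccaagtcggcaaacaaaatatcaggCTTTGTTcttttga
In *Sp5*, CTTTGTT lay on the reverse strand at 222 to 216 bases and CTTTGAT on the forward strand at 104 to 98 bases before the start site. In *Lef1* the match was CTTTGTA on the reverse strand, at 147 to 141 bases before a start site that lies inside the gene, and the 3 other windows of *Lef1* held none. In *Tcf7l2* the match was CTTTGTT at 14 to 8 bases before an internal start site. The windows of *Tcf7* held no match. Its upstream window holds an ATG that opens a reading frame to the end of the window, so it is in part coding sequence. Bases further upstream of *Tcf7* were not searched. A match describes letters in the reference only, and binding was not measured here.

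The counts were compared between LiCl and control samples with edgeR's quasi-likelihood test, with adjustment over the 18188 genes that passed the filter on low counts. All 9 genes passed this filter. Levels of a single gene are given in CPM, counts relative to the library size after TMM normalization, and levels are compared between genes in FPKM, which also divides by gene length. At an adjusted p under 0.05, 3 of the 9 genes had a higher expression after LiCl (*Tcf7*, *Lef1*, *Sp5*) and 2 a lower one (*Ctnnb1*, *Tcf7l2*). Among all tested genes 43.5% passed in either direction, 21.1% higher and 22.4% lower, and the 5 calls among 9 genes (55.6%) were a share near this background. None of the 9 genes passed the fold change threshold of the study, a log2 fold change above 1 or below -1, which 7.33% of the tested genes passed together with the adjusted p. The groups did not overlap in 6 of the 9 genes, against 54.2% of all tested genes. The median log2 fold change of the 9 genes was 0.03, and that of all tested genes -0.01.

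**Figure D1:**
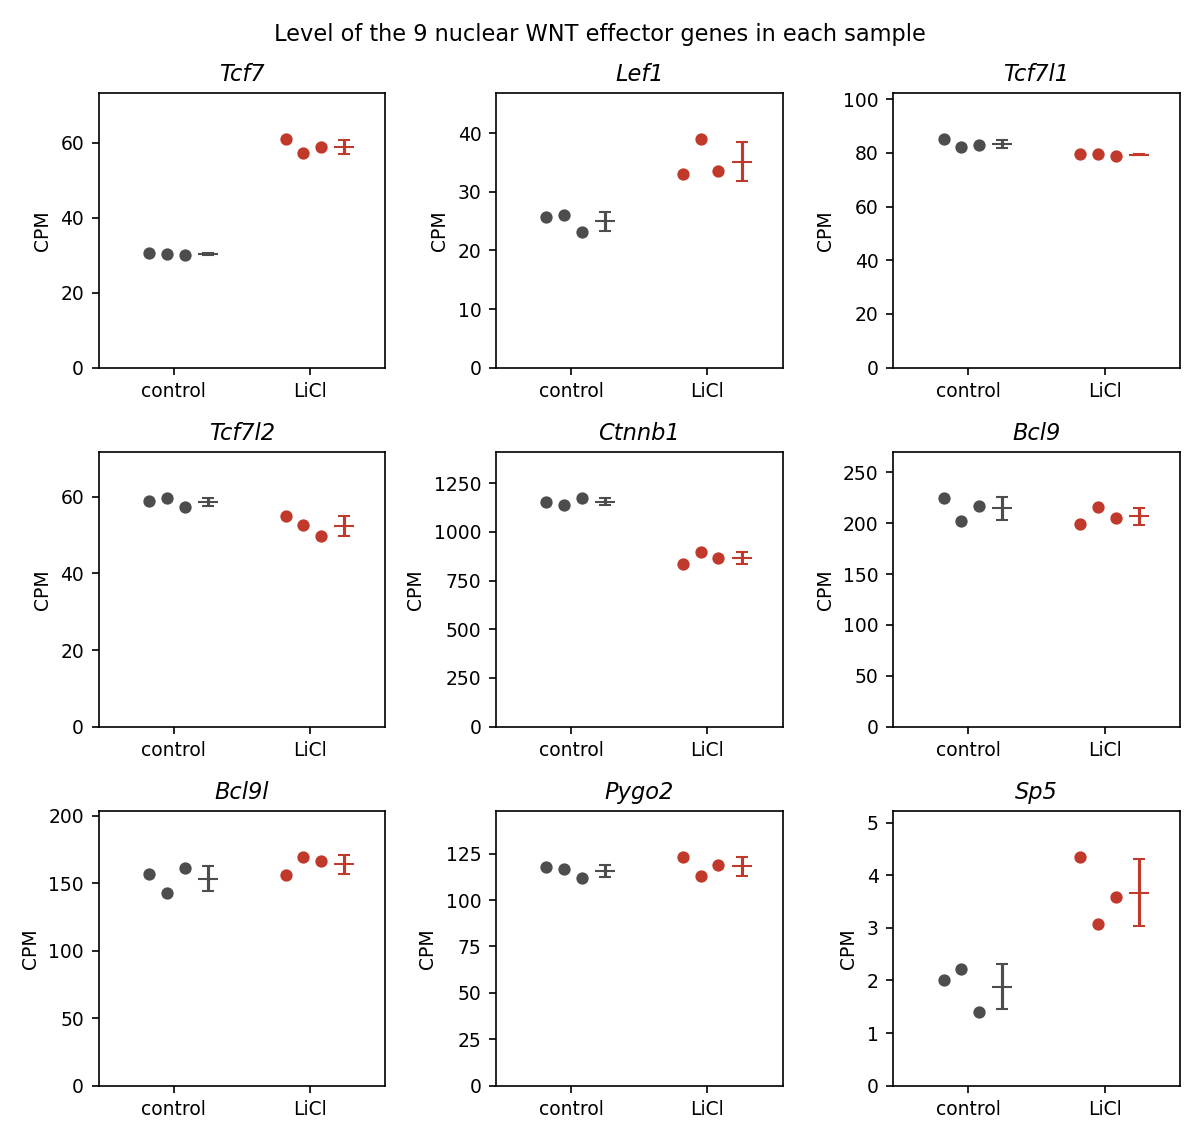
Expression of the 9 genes in each sample. The y axis of each panel gives CPM and starts at 0, points are the 3 control (grey) and 3 LiCl (red) samples in the order of their replicate numbers, and the bars are the mean and SD. *Tcf7*, *Lef1* and *Sp5* are higher in all LiCl samples, *Ctnnb1* is lower in all of them, and *Bcl9*, *Bcl9l* and *Pygo2* overlap.

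Among the TCF/LEF genes, the clearest change was found for *Tcf7* (ENSMUSG00000000782), the gene of a TCF factor also known from early T cells. *Tcf7* had 30.5, 30.3 and 29.9 CPM in control replicates 1 to 3 and 60.9, 57.2 and 58.8 CPM in LiCl replicates 1 to 3. All LiCl samples were well above all controls, and the samples within a group were close to each other. The log2 fold change was 0.96 (SE, standard error, 0.05, 95% interval 0.85 to 1.08, adjusted p = 1.54e-06 in edgeR), a 1.95-fold level. An increase of this size or more was seen in 3.27% of the tested genes.

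*Lef1* (ENSMUSG00000027985) encodes the family member that is itself often used as a WNT target. Its expression was 25.7, 26.1 and 23.1 CPM in the controls and 33.0, 38.9 and 33.5 CPM with LiCl. All LiCl samples exceeded the controls, and LiCl replicate 2 was the highest sample. The log2 fold change was 0.49 (SE 0.08, 95% interval 0.31 to 0.68, adjusted p = 0.00113 in edgeR), or 1.41-fold. Of all tested genes, 10.1% rose at least as much.

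*Tcf7l1* (ENSMUSG00000055799), which encodes the member most often described as a repressor, had 85.1, 82.3 and 82.9 CPM in the controls and 79.7, 79.5 and 79.0 CPM with LiCl. Each LiCl sample was slightly below each control, but the log2 fold change of -0.07 (SE 0.04, 95% interval -0.17 to 0.03) did not pass the test (adjusted p = 0.214 in edgeR). The interval leaves room for a decrease of up to 0.17 on the log2 scale.

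*Tcf7l2* (ENSMUSG00000024985), a family member well known from the intestinal epithelium, had 58.9, 59.7 and 57.4 CPM in the controls and 55.1, 52.6 and 49.8 CPM with LiCl. The LiCl samples were all below the controls, with a small difference. Its log2 fold change was -0.16 (SE 0.05, 95% interval -0.28 to -0.04, adjusted p = 0.0363 in edgeR). This call was kept in only 4 of the alternative settings. It was lost, among others, with DESeq2 (-0.14, adjusted p = 0.121) and in the edgeR fit without LiCl replicate 3 (-0.12, adjusted p = 0.167).

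The balance among the 4 TCF/LEF genes was described per sample as the share of each gene in their summed FPKM. In the controls *Tcf7l1* alone made up 52.5%, 51.5% and 52.7% of the sum, and with LiCl 40.3%, 40.9% and 41.1%. *Tcf7* had 24.4%, 24.7% and 24.7% in the controls and 40.0%, 38.2% and 39.7% with LiCl. The share of *Tcf7l1* was therefore lower and that of *Tcf7* higher in every LiCl sample, and the 2 genes stood nearly level after LiCl. *Tcf7l2* had 16.0%, 16.5% and 16.1% in the controls and 12.3%, 11.9% and 11.4% with LiCl. *Lef1* was the smallest share in every sample, with 7.07%, 7.29% and 6.55% in the controls and 7.43%, 8.94% and 7.78% with LiCl. The groups did not overlap for any of the 4 shares. In CPM, none of the 4 genes overlapped on its own either, as was the case in 54.2% of all tested genes.

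**Figure D2:**
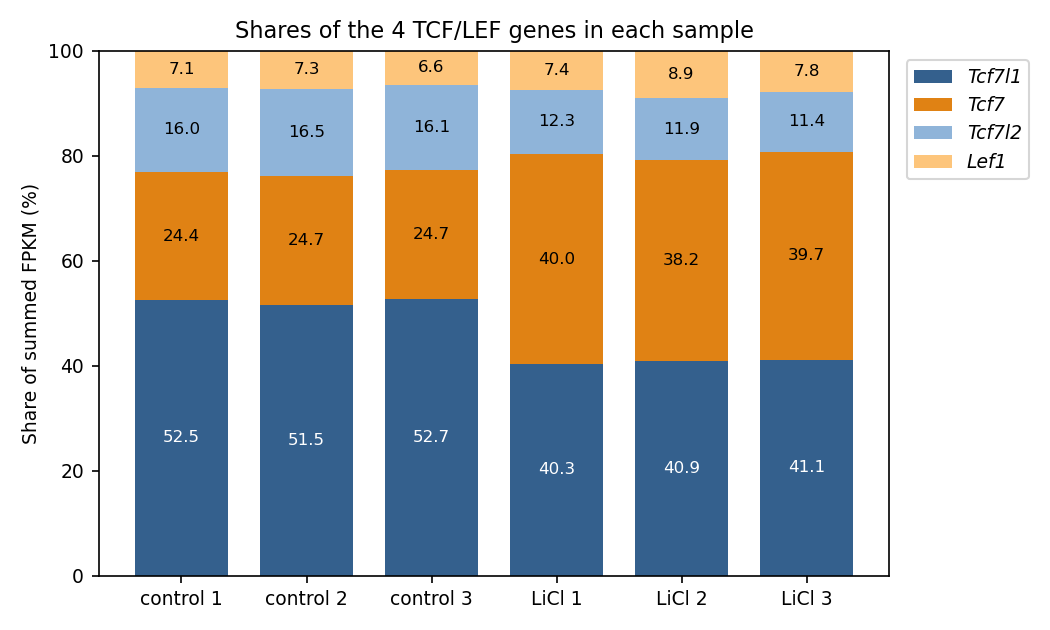
Shares of *Tcf7l1*, *Tcf7*, *Tcf7l2* and *Lef1* in their summed FPKM. The y axis gives percent, each bar is 1 sample, and the numbers in the bars are the shares. In the controls *Tcf7l1* takes more than the 3 other genes together, and in the LiCl samples *Tcf7* and *Tcf7l1* take similar shares.

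The mean share of *Tcf7* was 24.6% ± 0.15 (SD, n = 3) in the control and 39.3% ± 0.97 (SD, n = 3) with LiCl, a difference of 14.7 percentage points (SE 0.57). *Tcf7l1* went from 52.2% ± 0.59 to 40.7% ± 0.43 (SD, n = 3 each), a difference of -11.5 points (SE 0.42). For *Tcf7l2* the means were 16.2% ± 0.25 and 11.9% ± 0.42 (SD, n = 3 each), and the difference was -4.32 points (SE 0.28). The difference of *Lef1* was 1.08 points (SE 0.51), and without LiCl replicate 2 it was 0.64. Each of the 4 comparisons had p = 0.1 in a two-sided exact permutation test over samples, the smallest p that 3 against 3 samples allow, so none can pass a threshold of 0.05. The shares of 1 sample sum to 100%, so they are not independent of each other.

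In absolute terms the summed level of the 4 genes was 40.6, 40.5 and 39.7 FPKM in the controls and 50.5, 49.5 and 49.2 FPKM with LiCl. The mean difference was 9.44 FPKM (SE 0.47). *Tcf7* went from 9.91 ± 0.08 to 19.5 ± 0.64 FPKM (SD, n = 3 each), and *Lef1* from 2.81 ± 0.18 to 4.00 ± 0.37 FPKM. *Tcf7l1* had 21.0 ± 0.24 and 20.3 ± 0.06 FPKM, and *Tcf7l2* 6.52 ± 0.14 and 5.91 ± 0.29 FPKM. Most of the added transcript of the family was thus that of *Tcf7*. Per length, *Lef1* was far below *Tcf7* in the controls, although both had similar CPM values, so the shares depend on the gene lengths used. With counts in place of FPKM the difference in share was 10.8 points for *Tcf7*, -7.15 for *Tcf7l1*, -6.51 for *Tcf7l2* and 2.90 for *Lef1*, in the same directions.

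The summed FPKM of *Tcf7* and *Lef1* was also set against that of *Tcf7l1* and *Tcf7l2* within each sample. On the log2 scale this ratio was -1.12, -1.09 and -1.14 in the controls and -0.15, -0.16 and -0.14 with LiCl. It differed by 0.96 (SE 0.02, two-sided exact permutation test, p = 0.1), which corresponds to a ratio of 0.462 in the control and 0.900 with LiCl. *Tcf7l1* and *Tcf7l2* together were therefore still the larger part of the sum after LiCl.

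All 6 pairs within the family were compared as log2 ratios, in which the scaling between samples cancels. The ratio of *Tcf7* to *Tcf7l1* was -1.10, -1.06 and -1.09 in the controls and -0.01, -0.10 and -0.05 with LiCl, a difference of 1.03 (SE 0.03). *Tcf7* to *Tcf7l2* differed by 1.12 (SE 0.04), and the ratio itself went from 1.52 to 3.31. *Tcf7* to *Lef1* differed by 0.47 (SE 0.11), so that *Tcf7* rose by more than the other higher member. For *Tcf7l1* to *Lef1* the difference was -0.56 (SE 0.09), and for *Tcf7l2* to *Lef1* it was -0.65 (SE 0.10). *Tcf7l1* to *Tcf7l2* differed least, by 0.09 (SE 0.04), and by 0.06 without LiCl replicate 3. This ratio was 1.711, 1.645 and 1.711 in the controls and 1.714, 1.777 and 1.845 with LiCl, so its groups almost touched. In none of the 6 pairs did the groups overlap, and each had p = 0.1 in the two-sided exact permutation test (adjusted p = 0.1 over the 6 pairs). The 6 pairs are built from the same 4 genes, and how often other gene pairs do not overlap was not computed.

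**Figure D3:**
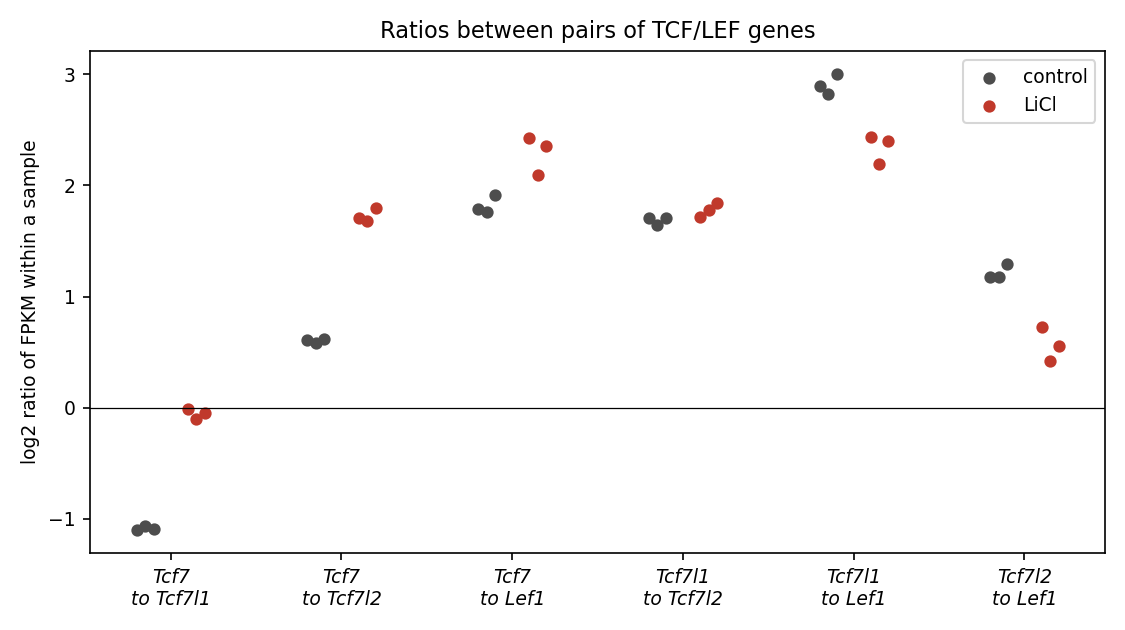
Ratios between pairs of TCF/LEF genes. The y axis gives the log2 ratio of FPKM within a sample, and each point is 1 control (grey) or LiCl (red) sample. The 3 ratios with *Tcf7* lie higher in the LiCl samples, the ratios of *Tcf7l1* and *Tcf7l2* to *Lef1* lie lower, and the ratio of *Tcf7l1* to *Tcf7l2* moves by 0.09 only.

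*Ctnnb1* (ENSMUSG00000006932) encodes the coactivator that TCF/LEF factors share, and it was the most strongly expressed of the 9 genes. It had 1153, 1138 and 1173 CPM in the controls and 835, 895 and 864 CPM with LiCl, so all LiCl samples were clearly lower. The log2 fold change was -0.42 (SE 0.04, 95% interval -0.51 to -0.32, adjusted p = 6.4e-05 in edgeR), so the level decreased by 25.1%. Of all tested genes 19.7% fell at least as much. In FPKM, *Ctnnb1* had 220.0 ± 3.22 in the control and 167 ± 5.60 with LiCl (SD, n = 3 each). Relative to the summed TCF/LEF genes it was 5.37, 5.39 and 5.63 times as high in the controls and 3.19, 3.48 and 3.40 times as high with LiCl. GSK3B acts on the stability of the CTNNB1 protein, which was not measured in these samples.

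The cofactors that bridge CTNNB1 to the transcription machinery did not pass the test. *Bcl9* (ENSMUSG00000038256), the mammalian counterpart of the fly gene legless, had 225, 202 and 217 CPM in the controls and 199, 216 and 205 CPM with LiCl. Its log2 fold change was -0.06 (SE 0.05, 95% interval -0.18 to 0.07, adjusted p = 0.441 in edgeR). Its paralog *Bcl9l* (ENSMUSG00000063382) had 156, 143 and 161 CPM in the controls and 156, 169 and 166 CPM with LiCl, with a log2 fold change of 0.10 (SE 0.06, 95% interval -0.03 to 0.23, adjusted p = 0.208 in edgeR). *Pygo2* (ENSMUSG00000047824), which encodes the PHD finger protein that binds BCL9 proteins, had 118, 117 and 112 CPM in the controls and 123, 113 and 119 CPM with LiCl, with a log2 fold change of 0.03 (SE 0.05, 95% interval -0.08 to 0.15, adjusted p = 0.615 in edgeR). The groups overlapped for each of these 3 genes, and the intervals exclude changes beyond 0.23 on the log2 scale in either direction.

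Although neither paralog passed on its own, the log2 ratio of *Bcl9* to *Bcl9l* within a sample did not overlap between groups. It was 0.44, 0.43 and 0.35 in the controls and 0.27, 0.27 and 0.22 with LiCl. The difference was -0.15 (SE 0.03, p = 0.1 in the two-sided exact permutation test). This ratio was added after the values of both genes had been seen, and it was not set against other gene pairs. *Pygo1*, the second mouse gene of its family, had a log2 fold change of -0.01 (SE 0.07, adjusted p = 0.909 in edgeR).

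*Sp5* (ENSMUSG00000075304) encodes a zinc finger factor of the SP family that is known as a direct WNT target and can bind the same regulatory regions as TCF/LEF factors. It was the least expressed of the 9 genes, with 58, 69 and 43 counts in the controls and 135, 86 and 101 counts with LiCl. In CPM this was 2.02, 2.22 and 1.40 in the controls and 4.34, 3.08 and 3.58 with LiCl. No LiCl sample reached down to a control, but the samples within a group varied more than for the other 8 genes. The log2 fold change was 0.96 (SE 0.22, 95% interval 0.48 to 1.45, adjusted p = 0.00592 in edgeR). Its size was thus like that of *Tcf7*, with an interval that was several times wider. Without control replicate 1, control replicate 2 or LiCl replicate 2, the log2 fold change of *Sp5* was 1.02, 1.11 or 1.08 and passed the fold change threshold.

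**Figure D4:**
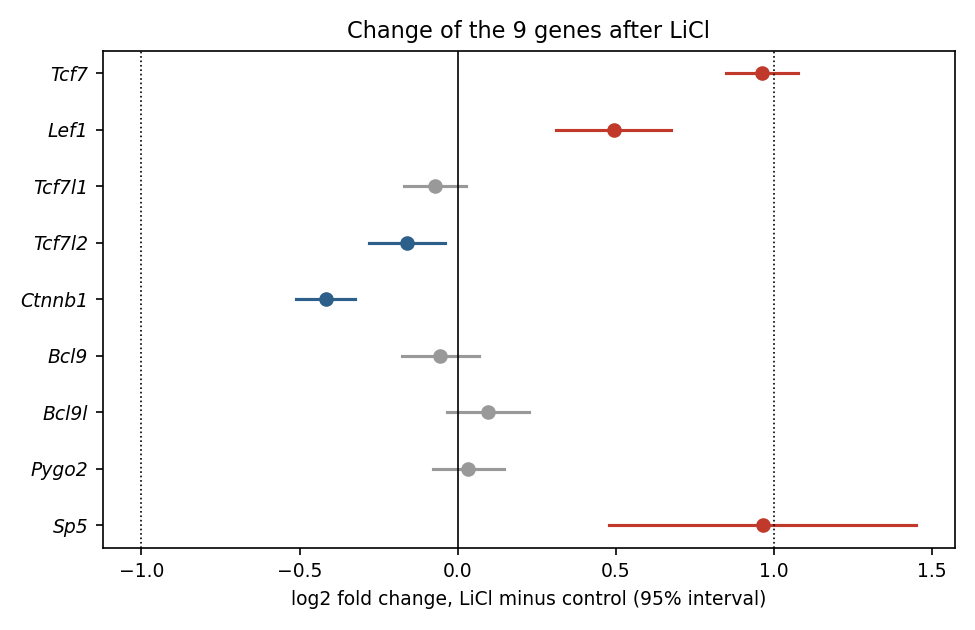
Change of the 9 genes after LiCl. The x axis gives the log2 fold change of LiCl minus control, points are the estimates of edgeR, lines the 95% intervals, and dotted lines the fold change threshold at -1 and 1. Red marks genes that were higher, blue genes that were lower and grey genes that did not pass. *Tcf7* and *Sp5* lie just under 1, and only *Ctnnb1* and *Tcf7l2* have intervals wholly below 0.

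Per length, the order of the 9 genes in the controls was *Ctnnb1*, *Pygo2*, *Bcl9*, *Tcf7l1*, *Bcl9l*, *Tcf7*, *Tcf7l2*, *Lef1* and *Sp5*, and no neighbours in this order overlapped in FPKM. The means ran from 220.0 FPKM for *Ctnnb1* to 0.89 FPKM for *Sp5*. With LiCl, *Bcl9l* (20.5 ± 0.85 FPKM), *Tcf7l1* (20.3 ± 0.06 FPKM) and *Tcf7* (19.5 ± 0.64 FPKM, SD, n = 3 each) stood together in the middle of the order. *Bcl9l* overlapped with *Tcf7l1*, and *Tcf7l1* with *Tcf7*, while all other neighbours stayed apart.

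For each TCF/LEF gene, the 3 genes with the most similar profile were sought among 10721 tested genes that averaged 10 CPM or more, by the Euclidean distance of centred log2 CPM over the 6 samples. *Usp36* (distance 0.063), *Nuf2* (0.070) and *Cdca5* (0.072) were nearest to *Tcf7*. *Bag4* (0.101), *Enpp3* (0.113) and *Ppp1r35* (0.121) were nearest to *Lef1*. *Fxyd6* (0.019), *Slc30a9* (0.023) and *Scamp1* (0.035) were nearest to *Tcf7l1*, and *Galk2* (0.033), *Tvp23b* (0.042) and *Zfand5* (0.048) to *Tcf7l2*. In 2 groups of 3 samples, genes with a like fold change lie near each other by this measure.

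The other genes of the pathway were then described by group. Of 30 further nuclear partners, 7 were higher, 5 were lower and 18 did not pass, which is 40.0% called against 43.5% of all tested genes, at a median log2 fold change of 0.02. The largest increases were those of *Med12* (0.36, adjusted p = 0.00217), a Mediator subunit, *Ruvbl2* (0.33, adjusted p = 0.000462), an ATPase that binds CTNNB1, and *Tle4* (0.30, adjusted p = 0.0185), each p from edgeR. Full-length TLE proteins are the corepressors that CTNNB1 displaces from TCF/LEF factors. Other corepressor genes among the higher partners were *Ctbp1* (0.25) and *Tle3* (0.19). *Tle5* (*Aes*), the gene of a short TLE protein that is not counted here as a corepressor, was higher too (0.15, adjusted p = 0.0455 in edgeR). Its samples overlapped between groups. The other TLE and CTBP genes of the list, *Ctbp2* (0.14), *Tle1* (-0.06), *Tle2* (-0.20) and *Tle6* (-0.25), did not pass. The decreases with the largest size were those of *Hic1*, *Hbp1* and *Ctnnbip1*. *Hic1*, a repressor that can sequester TCF factors, had 47.7 ± 4.25 CPM in the control and 27.0 ± 2.43 CPM with LiCl (SD, n = 3 each), with a log2 fold change of -0.82 (adjusted p = 7.88e-05 in edgeR). *Hbp1*, a repressor of TCF-dependent transcription, had 128 ± 0.34 and 78.3 ± 2.00 CPM, with -0.71 (adjusted p = 3.7e-06 in edgeR). *Ctnnbip1*, whose product blocks the binding of CTNNB1 to TCF factors, had a log2 fold change of -0.34 (adjusted p = 0.00217 in edgeR).

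Of 13 genes of the destruction complex and its regulators, 5 were higher and 1 was lower, with a median log2 fold change of 0.02. This is 46.2% called, a share near the 43.5% of all tested genes (21.1% higher, 22.4% lower). *Axin2*, a scaffold gene widely used as a WNT target, and *Dvl1*, an upstream inhibitor of the complex, had log2 fold changes of 0.92 and 0.77. *Axin1* rose by 0.25 (adjusted p = 0.00203 in edgeR). *Apc2* had -0.44 (adjusted p = 0.0127 in edgeR), with samples that overlapped between groups. *Gsk3b*, the gene of the kinase that LiCl inhibits, had 219 ± 13.4 CPM in the control and 220 ± 13.9 CPM with LiCl (SD, n = 3 each).

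Of 8 genes for partners of CTNNB1 at cell junctions, 6 were lower and 0 higher (75% called, against 22.4% lower and 43.5% in either direction among all tested genes), with a median log2 fold change of -0.43. *Cdh1* (E-cadherin), which is also one of the ureteric epithelium markers, had 319, 284 and 264 CPM in the controls and 140, 148 and 148 CPM with LiCl, a log2 fold change of -0.99 (SE 0.07, adjusted p = 8.51e-06 in edgeR). *Cdh11*, a mesenchymal cadherin, had 636 ± 5.63 CPM in the control and 368 ± 17.1 CPM with LiCl (SD, n = 3 each), a log2 fold change of -0.79 (adjusted p = 2.63e-06 in edgeR). *Jup*, which encodes γ-Catenin, the closest relative of CTNNB1, had -0.57 (adjusted p = 1.53e-05 in edgeR). The genes of α-Catenins and p120-Catenin, *Ctnna1*, *Ctnna2* and *Ctnnd1*, were the other lower genes, with -0.24, -0.51 and -0.35. *Cdh2* and *Cdh3* did not pass, both with log2 fold changes of -0.15.

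**Figure D5:**
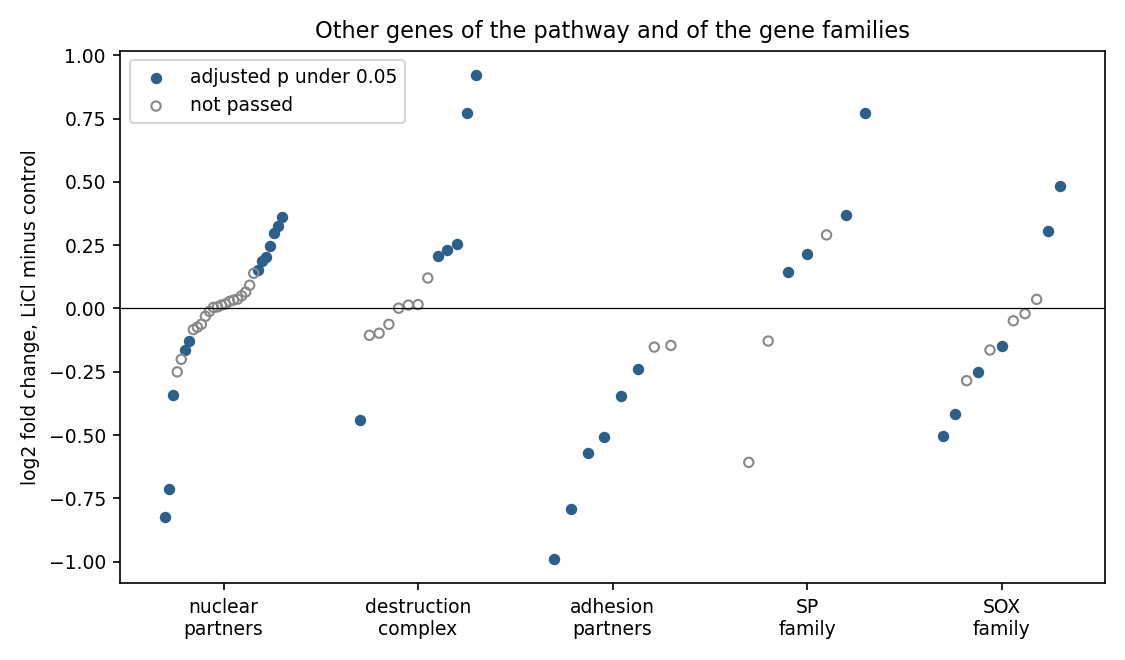
Log2 fold changes of other genes of the pathway and of the SP and SOX families. The y axis gives LiCl minus control, each point is 1 tested gene in order of its value within its group, filled where the adjusted p of edgeR's quasi-likelihood test was under 0.05. All 8 adhesion partners lie below 0, whereas nuclear partners and destruction complex genes lie on both sides.

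Among 7 tested relatives of *Sp5* in the SP family, 4 were higher and 0 lower (57.1% called, against 21.1% higher among all tested genes), with a median log2 fold change of 0.21. Without control replicate 3 or LiCl replicate 3, 2 of them were higher. *Sp8*, a known WNT target in other tissues, had a log2 fold change of 0.77 (adjusted p = 0.0157 in edgeR), but at only 1.17 ± 0.07 CPM in the control and 2.00 ± 0.34 CPM with LiCl (SD, n = 3 each). *Sp2* and *Sp1*, 2 broadly expressed members, rose by 0.37 and 0.21. In the SOX family, whose HMG box is related to that of TCF/LEF factors, 2 of 11 genes were higher and 4 lower. This is 54.55% called, against 43.5% of all tested genes (21.1% higher, 22.4% lower). *Sox2* (0.48) and *Sox11* (0.30) were higher, and *Sox6* (-0.50), *Sox4* (-0.42) and *Sox9* (-0.25) were the lower genes with the largest changes.

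Markers of the cell types in the explants were read beside these values. Among all tested genes 43.5% were called, 21.1% higher and 22.4% lower. Of 16 ureteric epithelium markers, 10 were lower and 1 higher (68.75% called, median log2 fold change -0.45). Their summed level was 1587 to 1925 CPM in the controls and 1160 to 1201 CPM with LiCl. Of 14 ureteric mesenchyme markers, 8 were lower and 3 higher (78.57% called, median -0.34). They summed to 8896 to 9725 CPM in the controls and 6622 to 7316 CPM with LiCl. Most of this sum came from *Col1a1*, *Col1a2* and *Col3a1* (means of 2614, 1795 and 1867 CPM in the controls). The summed level of both lists was thus lower in the LiCl samples, as was *Ctnnb1*, and the part of cell composition in those values was not tested. *Tcf7* and *Lef1* are strongly expressed in T cells, and only 3 of 10 T cell markers passed the filter, of which *Rag1* was lower, a call that was lost without control replicate 3. *Cd3e* was at 0 counts in every sample, and the summed level of the list was 5.43 to 6.82 CPM in the controls and 5.41 to 5.63 CPM with LiCl, most of it from *Lck* (3.93 to 5.67 CPM over all samples). The part of T cells in the values of *Tcf7* and *Lef1* was not tested.

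Of the other lists, macrophage and leukocyte markers summed to 105 to 163 CPM in the controls and 93.8 to 126 CPM with LiCl (5 of 10 lower, 1 higher). The share called was 60% in this list and in the nephron progenitor markers, against 43.5% of all tested genes (22.4% lower, 21.1% higher). It was 20% in the endothelial and in the neural crest and glial markers. Endothelial markers were at 604 to 762 and 556 to 684 CPM (2 of 10 lower), neural crest and glial markers at 241 to 270.4 and 206 to 260.1 CPM (2 of 10 lower), and nephron progenitor markers at 186 to 191 and 160 to 176 CPM (4 of 10 lower, 2 higher). Of 11 tested skeletal muscle markers, 6 were higher (54.55% called, 3 to 9 higher with each replicate left out). Their sum stood apart in 2 libraries, with 53.1 and 109 CPM in LiCl replicates 1 and 3. It was 16.1 CPM in LiCl replicate 2 and 15.8 to 18.9 CPM in the controls. With LiCl replicate 2 alone against the controls, the log2 fold changes were 0.93 for *Tcf7*, 0.65 for *Lef1*, 0.72 for *Sp5* and -0.15 for *Tcf7l2*. This arm holds 1 library, so its own spread is unknown and these values carry no test here. The part of the muscle transcripts in the values of the 9 genes was not tested otherwise.

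Counts per gene do not separate transcripts, so the full-length forms of *Tcf7* and *Lef1* and their shorter forms that lack the CTNNB1 binding domain were read as 1 value each. The strand setting of the counting was not given in the sources used here. Exons of *Ctnnb1* overlap with *Ulk4* on the opposite strand (264 to 341 counts per sample), those of *Lef1* with *Gm43352* (24 to 52 counts) and those of *Tcf7l1* with *Gm15401* (11 to 24 counts), each far below the counts of the gene itself. *Bcl9l* overlaps with *Gm47205* and *Cxcr5*, at 0 to 17 counts, and no such gene was found for *Tcf7*, *Tcf7l2*, *Bcl9*, *Pygo2* and *Sp5*.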

How the data were processed

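RNA-Seq was performed on 6 samples, 3 LiCl and 3 control, grouped by their labels. The authors deposited raw counts per gene for 56748 Ensembl identifiers, made on GRCm39 with featureCounts. The methods of the study name HISAT2 as the aligner, whereas the submitters' processing notes list fastp 0.23, STAR 2.7, featureCounts 2.0 and DESeq2 1.40, so the aligner behind the counts is uncertain. The annotation release is not given in the sources used here. FPKM values of each sample were deposited as well. In 13480 genes with more than 50 counts in every sample, these equalled the counts divided by DESeq2's size factors and a constant per gene (largest relative spread 5.43e-08). Symbols were taken from GENCODE vM21, made for GRCm38, for 52073 identifiers, and identifiers without one held 0.19% of the counts. Since the builds differ, no gene coordinates are given, and promoter windows are those of RefSeq on GRCm38.p6.

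The test was the quasi-likelihood F test of edgeR 4.0.16 (R 4.3.3) after filterByExpr and TMM normalization, with Benjamini-Hochberg adjustment over 18188 genes and a common dispersion of 0.00665. A chi-square test between replicates of a group gave 5.51 to 13.2 per degree of freedom, above sampling noise, so none was counted as a copy. Shares and ratios were computed from FPKM without a pseudocount and compared with two-sided exact permutation tests over samples. The alternative settings used other scaling (RLE, or library size only), another tool (DESeq2 1.42.0, limma 3.58.1), another filter (none, or a minimum of 10 counts in each sample), a block for the replicate number, or 1 replicate less. For limma the values were log2(FPKM + 0.1) and log2(FPKM + 1), filtered at a mean of 0.5 FPKM, and the latter also unfiltered. Shares were recomputed from counts and with 0.1 or 1 FPKM added. The comparison with LiCl replicate 2 alone and the ratio of *Bcl9* to *Bcl9l* were added after seeing the data. Scripts were tested on simulated data.

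The 9 genes and all gene lists were chosen with earlier results of these data known. Named were all 9 genes, in each other list up to 3 genes per direction with the largest log2 fold change among those with an adjusted p under 0.05, the 3 nearest profiles of each TCF/LEF gene, and the promoter motifs. Of the marker lists only summed levels and counts are given, apart from *Cd3e*, *Rag1*, *Lck*, *Col1a1*, *Col1a2* and *Col3a1*. *Pygo1*, *Ctbp1*, *Ctbp2*, *Tle1*, *Tle2*, *Tle3*, *Tle5*, *Tle6*, *Gsk3b*, *Ctnna1*, *Ctnna2*, *Ctnnd1*, *Cdh2* and *Cdh3* are named outside this rule and were chosen after their values were seen.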

Additional observations from a re-analysis of the deposited data

How the results depend on the processing

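Under 16 alternatives, *Tcf7* kept a log2 fold change between 0.91 and 0.99, *Lef1* between 0.39 and 0.65 and *Ctnnb1* between -0.45 and -0.36. The fit with LiCl replicate 2 alone has no spread in that group and gives effect sizes only. In every other setting *Tcf7*, *Lef1* and *Ctnnb1* passed the test, and *Tcf7l1*, *Bcl9*, *Bcl9l* and *Pygo2* passed in none. *Sp5* had 0.54 to 1.11, passed in every other setting too, and had 0.72 with LiCl replicate 2 alone. *Tcf7l2* did not pass with DESeq2 (-0.14), without a filter (-0.13) or with limma on log2(FPKM + 0.1) (-0.14). The same held for limma on log2(FPKM + 1), filtered or not (-0.12). With LiCl replicate 2 alone *Tcf7l2* had -0.15. With each replicate left out it ranged from -0.19 to -0.12, passing only without LiCl replicate 1. Where it did not pass, 1 of the 9 genes, *Ctnnb1*, was lower. With each replicate left out, 1 to 2 genes were lower and 0 to 1 passed the fold change threshold.

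The labels number the replicates 1 to 3 in both groups without saying whether a number marks a shared litter or day, and deviations of same-numbered samples correlated at -0.02, -0.28 and 0.11, with 1 of 6 samples closest to its own number. With the replicate number as a block, 3379 of all tested genes were higher and 3602 lower, against 3844 and 4071 without it, *Tcf7l2* had -0.16 (adjusted p = 0.0588 in edgeR), 1 of the 9 genes was lower, 3 nuclear partners were lower, and 2 SP and 1 SOX genes were higher.

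Of the nuclear partners, 3 were lower without a filter and in the 3 limma settings (3 to 5 with each replicate left out). Of the destruction complex, 2 genes were lower with library size only and 0 with unfiltered limma on log2(FPKM + 1) (0 to 2 with each replicate left out). The fit with LiCl replicate 2 alone assumes this sample to vary like the controls, so no counts of called genes are given for it. With each replicate left out, 3 to 9 skeletal muscle markers were higher, 2 to 6 macrophage, 1 to 4 endothelial, 1 to 3 neural crest and 2 to 4 nephron progenitor markers lower, and 2 to 4 SP genes and 1 to 2 SOX genes higher. Over all settings, 0 (unfiltered limma) to 10 (no filter) skeletal muscle markers were higher. The 4 shares and all ratios kept their direction in 9 alternatives, with 10.8 to 15.3 points for *Tcf7*, -11.8 to -7.15 for *Tcf7l1*, -6.51 to -4.09 for *Tcf7l2* and 0.64 to 2.90 for *Lef1*. For the ratio of *Tcf7l1* to *Tcf7l2*, the p of the two-sided exact permutation test was 0.1 to 0.3 in these alternatives. The cause of these differences was not tested. At 43 to 135 counts per sample, depth limits the precision of *Sp5*, and 3 samples per group limit that of every permutation test.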
